A study of Mus musculus with 6 samples.

Results

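The cells described here are day 1 neutrophils of injured mouse muscle that carried transcripts of Retnlg, Mmp9 or Cxcr2 and almost none of a set of genes led by Ccl3. They were chosen by measured values. A barcode of either day 1 library was taken when it had at least 500 UMIs (unique molecular identifiers, each 1 captured transcript), at least 200 genes and at most 10% mitochondrial UMIs, when S100a8 and S100a9 made up at least 1% of its UMIs, and when it held at least 1 Csf3r UMI and no Csf1r or Ccr2 UMI. It also had to hold at least 3 UMIs of Retnlg, Mmp9 and Cxcr2 together and at most 1 UMI of Ccl3, Hcar2, Slc7a11 and Pdcd1lg2 together. This gave 1403 barcodes, 673 of the library collected at ZT4 and 730 of the library collected at ZT16, out of 64032 filtered barcodes in 6 libraries.

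The series profiled single cells from the tibialis anterior, a shin muscle, of wildtype mice after injury with cardiotoxin, a snake venom toxin that destroys muscle fibres. Muscles of both hindlimbs were taken uninjured (day 0) and on day 1 and day 3, at zeitgeber time 4 or 16 (hours after lights on), and live cells negative for propidium iodide were sorted and captured with the 10x 3' v3.1 chemistry. There is 1 library for each day and time, and the number, sex and age of the mice behind a library are not given in the sources used here. No difference below therefore has a replicate check, no p-value is given, and every interval covers counting error only.

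Neutrophils leave the bone marrow with their granule proteins already made and reach damaged tissue by rolling on vessel walls, sensing chemokines through Cxcr2 and lipid attractants through Ltb4r1, and then crossing into the tissue, where gelatinase (Mmp9) can cut matrix. Inside inflamed tissue, signals through NF-kB induce cytokines and chemokines together with the inhibitors that end the signal, such as Nfkbia. Blood neutrophils also follow a daily cycle of ageing, in which Cxcr2 declines while Cxcr4, a receptor for marrow homing, increases.

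The working name of the population, newly arrived Retnlg neutrophils, was only partly borne out. A Retnlg UMI was found at ZT4 in 148 of the 673 cells (22.0%, exact 95% binomial interval 18.9 to 25.3%) and at ZT16 in 122 of 730 (16.7%, 14.1 to 19.6%), against 0.658% and 0.175% of non-immune reference cells (endothelial and stromal genes, no Ptprc), which are deeper. Median depth was 2281 and 2391 UMIs in the neutrophils and 6056.5 and 6279 UMIs in those reference cells. Mmp9 was found in 96.6% and 97.0% of the cells and Cxcr2 in 96.0% and 98.6%, so the entry of most cells rested on these 2 genes. In summed UMIs, Retnlg, which encodes a resistin-like protein of granulocytes, stood at 456 and 249.9 CPM (a gene's UMIs per 1000000 UMIs of the class), below its 601 and 473 CPM in the neutrophils that fell in neither class of the rule. The cells are therefore called Mmp9/Cxcr2 neutrophils below. No measurement here dates their arrival in the muscle. S100a8, the alarmin used to call neutrophils, reached 36581 and 31882 CPM, against 19.6 and 16.8 CPM in the non-immune reference cells. Ly6g, the surface marker of mouse neutrophils, was sparse at 11.9 and 7.67 CPM. Of 8 primary granule genes, which precursors make, Mpo, Elane, Ctsg and Ms4a3 had no UMI in either library, which allows up to 3 UMIs of each. Prtn3 (25.6 and 29.0 CPM), Prss57 (13.7 and 10.4 CPM) and Ctsc (44.3 and 52.1 CPM) were detected, and the list summed to 93.0 and 97.0 CPM.

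The rule's neutrophil part, before the 2 gene sets, held 2646 barcodes at ZT4 and 2322 at ZT16. Mmp9/Cxcr2 neutrophils were 25.4% (23.8 to 27.1%) of these at ZT4 and 31.4% (29.6 to 33.4%) at ZT16. As a share of all filtered barcodes they were 6.13% (5.69 to 6.59%) of 10984 at ZT4 and 6.50% (6.05 to 6.97%) of 11233 at ZT16, while the neutrophil part as a whole was 24.1% and 20.7%. The share of all cells thus differed little between the times, and the share among neutrophils was higher at ZT16. With every barcode thinned to 1000 UMIs the share among neutrophils was 34.1% of 2496 and 38.7% of 2289. The same rule found 7 and 2 barcodes on day 0 and 37 and 16 on day 3 (ZT4 and ZT16), too few to compare their genes. On day 3 they were 0.390% (0.275 to 0.537%) and 0.196% (0.112 to 0.318%) of filtered barcodes. The neutrophils at the opposite corner of the rule, with at least 3 UMIs of the Ccl3 set and at most 1 of the Retnlg set, are called Ccl3 neutrophils and numbered 203 at ZT4 and 100 at ZT16.

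**Figure D1:**
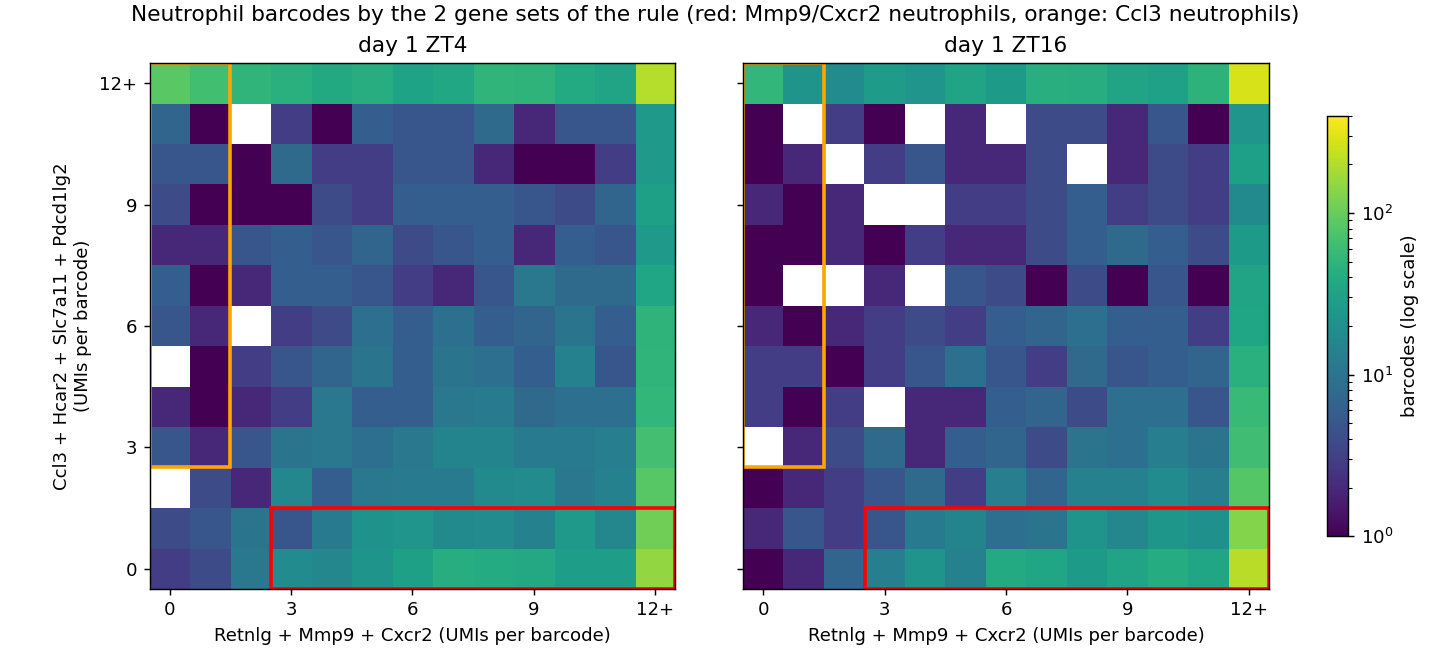
Neutrophil barcodes of each day 1 library by their UMIs of Retnlg, Mmp9 and Cxcr2 (horizontal) and of Ccl3, Hcar2, Slc7a11 and Pdcd1lg2 (vertical), with 12 or more in the last bin and colour for the number of barcodes on a log scale. The red box holds the 673 and 730 Mmp9/Cxcr2 neutrophils, the orange box the 203 and 100 Ccl3 neutrophils, and more barcodes (1456 and 1253) carry at least 3 UMIs of both sets than lie in the 2 boxes together.

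The limits of the rule cut through a continuous range. At exactly 3 UMIs of the first set, just inside, were 23 and 18 barcodes, and at exactly 2, just outside, 21 and 10. With exactly 1 UMI of the second set, just inside, were 259 and 264 barcodes, and with exactly 2, just outside, 201 and 178. Hp, a granule gene, stood at 1309 and 1526 CPM just inside this second limit and at 1259 and 1551 CPM just outside it. At the first limit, with few barcodes, Hp stood at 962 and 685 CPM just inside and at 1517 and 1384 CPM just outside. Most neutrophils, 1456 at ZT4 and 1253 at ZT16, carried at least 3 UMIs of both sets. No barcode sequence was shared between the 673 and 730 cells, and 48 were shared between all 11235 and 11493 deposited barcodes of the 2 libraries.

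Transcripts of other cell types were also present in the Mmp9/Cxcr2 neutrophils. Muscle fibre genes summed to 400.2 CPM at ZT4 and 1189.7 CPM at ZT16, stromal genes to 714 and 627 CPM, and red cell and platelet genes to 6.24 and 932 CPM. Lymphoid markers were near 0, at 8.74 and 3.29 CPM with 4 of 9 genes at 0. The 10 macrophage markers summed to 305 and 459.8 CPM, with Apoe at 144 and 244 CPM, Pf4 at 21.9 and 49.3 CPM and C1qa at 0.624 and 7.12 CPM. Of the 4 measured, Apoe and Pf4 were higher at ZT16 and none was lower, with a median of 0.65. Monocyte markers summed to 716 and 689 CPM, with Plac8 and Fn1 higher and Ly6c2 lower of 5 measured. At least 3 UMIs of 28 B cell, haemoglobin, muscle fibre, stromal, vessel and macrophage genes were carried at ZT4 by 62 of 673 cells (9.21%) and at ZT16 by 116 of 730 (15.9%). Their part in the results was not tested. Counts without these barcodes are given for some lists and comparisons, and counts of other lists differ without them too. Xist had no UMI in either library and the Y-linked Ddx3y stood at 97.4 and 88.8 CPM in these cells.

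The comparison of ZT16 with ZT4 sets these cells of both day 1 libraries side by side, at closely matched depth (1601632 and 1824800 UMIs in all). The sample labels give the day after injury but no hour of injury. Time of day can therefore not be told apart from the library, its mice or the time since injury. Of 16 NF-kB feedback genes 9 were lower at ZT16, inhibitors, subunits and an adaptor among them, and so were Cxcl2, Icam1 and Acod1. Cebpb, Cxcr4, Ptgs2, Zfp36, Nr4a1 and Chil3 were higher. Il1b differed little. Of 6397 genes with at least 30 UMIs in both libraries together, 238 (3.72%) were at least 1.5-fold higher at ZT16 with an interval above 0, and 326 (5.1%) at least 1.5-fold lower with an interval below 0. The median log2 value of all genes was -0.05. Centred on that median the numbers were 290 and 270, so that the higher genes made up 51.8% rather than 42.2% of those past the fold.

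**Figure D2:**
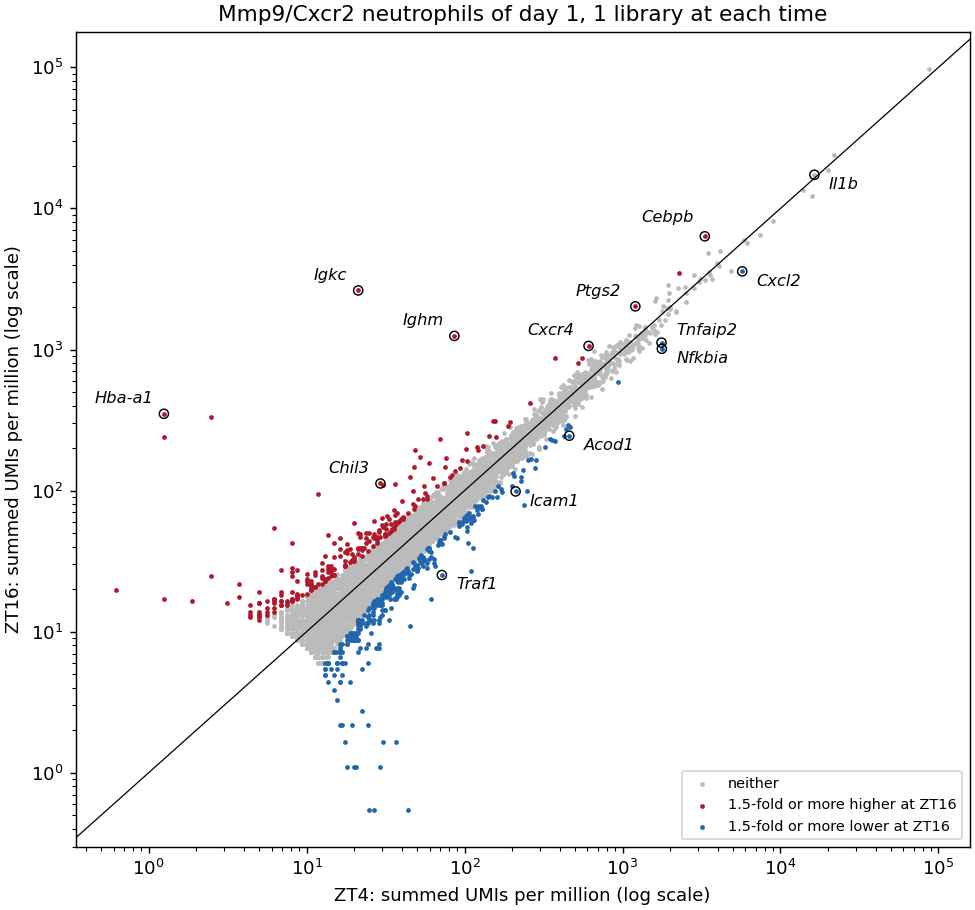
Level (CPM) of each measured gene in Mmp9/Cxcr2 neutrophils at ZT4 (horizontal) and ZT16 (vertical), both on log scales, with the line of equal levels. Red and blue points are 1.5-fold or more higher or lower at ZT16, and circles mark named genes. Cebpb (3316 and 6345 CPM) lies above the line and Nfkbia (1773 and 1012 CPM) below it, while Igkc, Ighm and Hba-a1 stand far off.

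The NF-kB feedback list held 16 genes, of which 9 were lower by the 1.5-fold rule and none higher, and all 16 values were below 0. Its median was -0.62, against -0.05 for all genes. Nfkbia (ENSMUSG00000021025, chr12:55489410-55492647), the inhibitor that holds NF-kB in the cytoplasm, stood at 1773 CPM (ZT4) and 1012 CPM (ZT16) (log2 -0.81, 95% interval -0.89 to -0.72). Nfkbie, a second inhibitor of the same family, stood at 111 CPM (ZT4) and 58.6 CPM (ZT16) (log2 -0.91, 95% interval -1.27 to -0.56). Tnfaip3, the ubiquitin-editing enzyme A20, and its partner Tnip1 stood at 228 and 124 CPM and at 64.9 and 29.0 CPM, log2 -0.88 and -1.15. All of these were lower at ZT16 with intervals clear of 0. The subunit genes of the alternative pathway, Nfkb2 and Relb, were at log2 -0.86 and -0.80 (Relb 0.42 when thinned to 1000 UMIs a barcode), whereas Nfkb1 was at -0.13 (interval -0.49 to 0.23) and Rel at -0.42. Traf1, an adaptor of TNF receptors, had the most negative value of the list, -1.50, from 71.8 and 25.2 CPM. Tnfaip2 was at 1765 and 1119.6 CPM (log2 -0.66) and Nfkbiz, an atypical inhibitor, at log2 -0.59. Tnf itself was at 419.6 and 289 CPM, a log2 value of -0.54 that did not reach 1.5-fold, and Sod2 was at -0.09. Without the barcodes that carried transcripts of other cell types, 7 of 16 genes were lower, none was higher and the median was -0.56.

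The same difference was not of one size across the cells of the libraries. The list's median was -0.54 in the neutrophils of neither class and -0.25 in monocyte reference cells (Csf1r and Ccr2 UMIs, no Csf3r). Nfkbia had log2 values of -0.20 (-0.23 to -0.16) in the former, 0.09 (-0.04 to 0.23) in Ccl3 neutrophils and -0.05 (-0.08 to -0.03) in the monocyte reference, beside -0.81 in Mmp9/Cxcr2 neutrophils. Tnfaip3 had -0.16 (-0.26 to -0.05), -0.53 (-1.11 to 0.00) and 0.51 (0.44 to 0.58) in the same order, beside -0.88. Tnf had 0.05 (-0.01 to 0.12) and -0.04 (-0.12 to 0.04) in the other neutrophils and the monocyte reference, beside -0.54. Tnfaip2, by contrast, had -0.74 and -1.14, and Traf1 -1.21 and -1.0, beside -0.66 and -1.50. The values of Nfkbia, Tnfaip3 and Tnf thus lay further below 0 in Mmp9/Cxcr2 neutrophils than in the other neutrophils and the monocyte reference. Those of Tnfaip2 and Traf1 were below 0 in all 3. In Ccl3 neutrophils the Tnfaip3 interval included -0.88. The list's medians in Mmp9/Cxcr2 and other neutrophils were -0.62 and -0.54. The rule caps Ccl3, which stood at 2395 CPM (ZT4) and 3679 CPM (ZT16) in the other neutrophils. What this cap does to the comparison was not tested. The difference between cell groups was not tested, since each value comes from 1 library at each time.

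**Figure D3:**
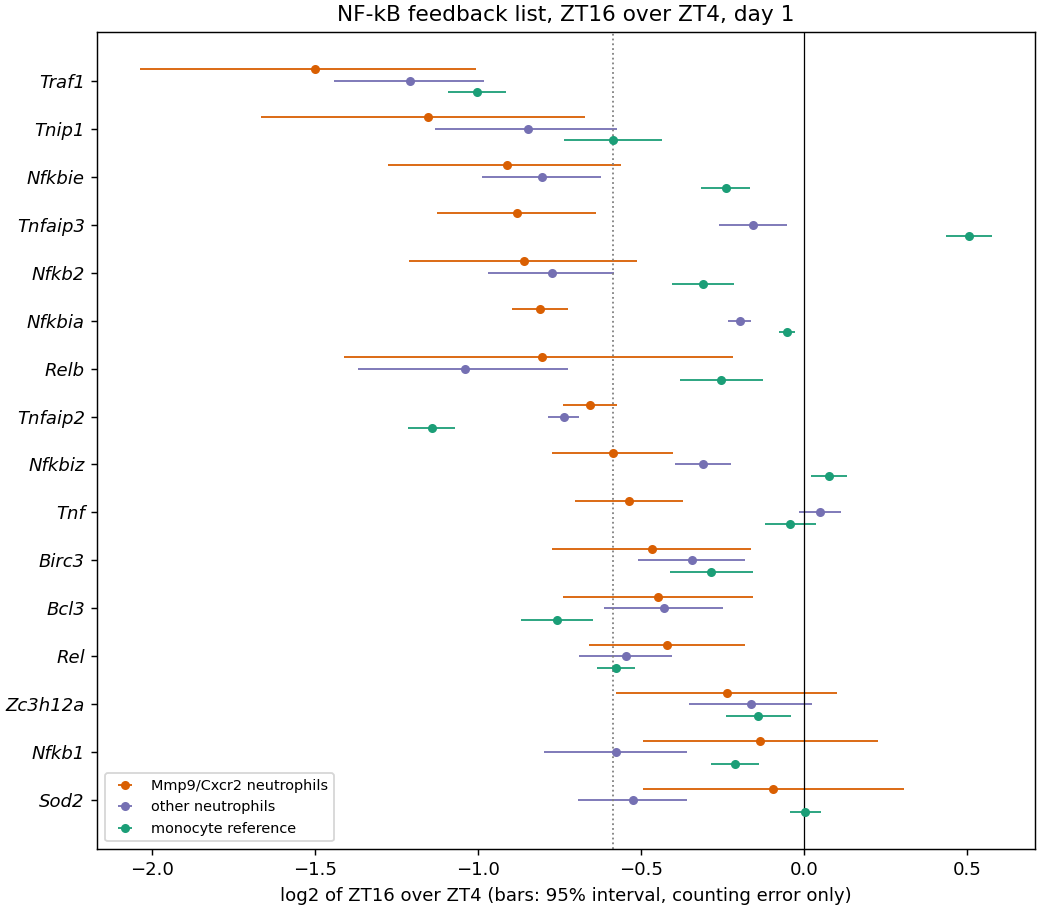
Log2 ratio of ZT16 over ZT4 for the 16 genes of the NF-kB feedback list in Mmp9/Cxcr2 neutrophils, in the other neutrophils and in monocyte reference cells of day 1, with exact 95% intervals for counting error. The dotted line marks 1.5-fold lower. For Nfkbia the first group sits at -0.81 and the others at -0.20 and -0.05.

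The promoters of 4 genes that were lower at ZT16, all with a match to the motif below, are printed to show the sequence upstream of them. They are the 250 bases before a RefSeq start on GRCm38.p6, read 5' to 3' on the strand of the gene, with matches to GGANNTTCC, a short form of the NF-kB site, in capitals. The regions are chr12:55492648-55492897 (minus strand) for Nfkbia, chr10:19015411-19015660 (minus strand) for Tnfaip3, chr9:21015690-21015939 (plus strand) for Icam1 and chr5:90903649-90903898 (plus strand) for Cxcl2.
Nfkbia: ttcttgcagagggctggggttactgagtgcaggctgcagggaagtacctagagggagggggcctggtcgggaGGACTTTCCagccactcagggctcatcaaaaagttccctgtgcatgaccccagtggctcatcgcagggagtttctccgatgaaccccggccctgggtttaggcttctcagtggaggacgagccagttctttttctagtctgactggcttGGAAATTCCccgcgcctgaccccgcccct
Tnfaip3: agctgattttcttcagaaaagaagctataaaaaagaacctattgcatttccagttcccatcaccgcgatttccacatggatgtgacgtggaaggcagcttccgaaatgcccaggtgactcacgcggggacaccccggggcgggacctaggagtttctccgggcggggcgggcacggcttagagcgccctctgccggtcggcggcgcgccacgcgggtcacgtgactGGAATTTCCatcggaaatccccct
Icam1: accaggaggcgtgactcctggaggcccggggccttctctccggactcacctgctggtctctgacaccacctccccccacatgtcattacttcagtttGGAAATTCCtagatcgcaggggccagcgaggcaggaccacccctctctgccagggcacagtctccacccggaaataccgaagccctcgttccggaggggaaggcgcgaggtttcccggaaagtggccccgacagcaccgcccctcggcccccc
Cxcl2: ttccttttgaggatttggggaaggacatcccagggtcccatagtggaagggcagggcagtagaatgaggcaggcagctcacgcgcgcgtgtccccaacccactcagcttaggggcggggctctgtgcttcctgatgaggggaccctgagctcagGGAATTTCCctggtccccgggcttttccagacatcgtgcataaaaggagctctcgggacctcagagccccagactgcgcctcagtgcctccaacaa
Nfkbia held 2 matches, at 178 to 170 and 29 to 21 bases before the start, and the others held 1 each, at 24 to 16 (Tnfaip3), 153 to 145 (Icam1) and 96 to 88 (Cxcl2) bases before it. A further Tnfaip3 start in the table, with its promoter at chr10:19011964-19012213, held none. The promoters of Traf1 (log2 -1.50) and Tnip1 (log2 -1.15), also lower at ZT16 and not printed, held none either. The motif was searched on both strands, and a gene counted when any of its starts had a match. It was found in 1178 of all 32851 promoters of the same length (3.59%). By gene, it was found in 256 of the 5138 genes measured in these cells that have a promoter in the table (4.98%), in 8 of the 15 genes of the list plus Icam1 and Cxcl2 that have one, and in 7 of the 9 of those that were lower at ZT16. The list was put together as NF-kB genes, so its share beside that of all measured genes tests no link to collection time. A match is a description, and no binding was measured.

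Other inflammatory genes were lower at ZT16 in part. Cxcl2, a ligand of Cxcr2, stood at 5725 CPM (ZT4) and 3580.1 CPM (ZT16) (log2 -0.68, 95% interval -0.72 to -0.63), beside -0.51 in the other neutrophils and -0.04 in Ccl3 neutrophils. Icam1, the ligand of beta-2 integrins, stood at 210.4 and 98.6 CPM (log2 -1.09). Acod1, which makes itaconate, stood at 460.2 and 245 CPM (log2 -0.91), and Gpr84, a receptor for medium-chain fatty acids, at 104 and 52.1 CPM (log2 -0.99). Of 6 measured genes of the interleukin-1 system, 3 were lower and none higher, with a median of -0.48. Without the barcodes carrying other cell types' transcripts, 2 of the 6 were lower and the median was -0.44. Il1rn, the receptor antagonist, was at 358 and 227 CPM (log2 -0.66), Il18rap at log2 -0.61 and Il1a at log2 -0.70 (-0.046 when thinned, short of 1.5-fold). Il1b stood at 16404 CPM (ZT4) and 17339 CPM (ZT16), a log2 value of 0.08, so of the pair only the antagonist was lower. Cxcl10 (13.7 and 48.2 CPM), Ccl2 (19.98 and 58.6 CPM) and Ccl7 (13.1 and 34.5 CPM) were higher, with 31.8% of the ZT16 UMIs of Cxcl10 in 1 barcode. They were 3 of the 9 measured chemokines, and 1, Cxcl2, was lower. For Ccl2 the other neutrophils had a log2 value of 1.79, and for Cxcl10 -1.12, of the opposite sign to the 1.79 in these cells.

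Among receptors and adhesion genes, Cxcr4 was the 1 of 9 measured chemoattractant receptors past 1.5-fold. It stood at 609 CPM (ZT4) and 1060.4 CPM (ZT16) (log2 0.80, 95% interval 0.69 to 0.91), and it was also higher in the other neutrophils (0.94), in Ccl3 neutrophils (0.76) and in the monocyte reference (0.54). Ccr1 was at log2 0.29, C5ar1 at 0.31, Ltb4r1 at -0.43 and Fpr2 at -0.35, all short of 1.5-fold. Selplg, a glycoprotein ligand for rolling, was at log2 0.38. Of 13 adhesion genes, Icam1 and Itgb1 were lower and none was higher. Itgb1 was at log2 -0.73, and at -0.21 when thinned, short of 1.5-fold.

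Transcription factors, early response genes and lipid mediator genes were among the higher ones. Cebpb (ENSMUSG00000056501, chr2:167688915-167690418), the C/EBP factor of emergency granulopoiesis, stood at 3316 CPM (ZT4) and 6345 CPM (ZT16) (log2 0.94, 95% interval 0.89 to 0.98). It was higher in every group looked at, with 0.90 in the other neutrophils, 0.70 in Ccl3 neutrophils, 0.71 in the monocyte reference and 0.89 in the non-immune reference. Of 12 measured neutrophil transcription factors, Cebpb and the sparse Cebpa (4.37 and 13.2 CPM) were higher and Irf1 (109.9 and 61.9 CPM, log2 -0.83) lower. Of 15 immediate early genes, Zfp36, which destabilises cytokine transcripts, was higher at 554 and 875 CPM (log2 0.66), as was the nuclear receptor Nr4a1 at 524 and 807 CPM (log2 0.62). Fos and Junb had log2 values of 0.47 and 0.48, short of 1.5-fold. Ptgs2, the inducible cyclooxygenase, stood at 1205 CPM (ZT4) and 2022 CPM (ZT16) (log2 0.75) and Ltc4s, which makes leukotriene C4, at 30.6 and 55.3 CPM. Pla2g4a, which frees their substrate, was lower at 36.8 and 17.0 CPM. Pmaip1, which encodes the death-promoting protein Noxa, was the 1 of 16 measured survival genes past the fold, at 63.1 and 123 CPM (log2 0.96), while Mcl1, the protein it binds, was at log2 -0.22.

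Genes of the clock itself were at the edge of detection. Arntl and Npas2 had at most 5 UMIs in either library, Clock 3 and 20, and Nr1d1 and Dbp at most 9. Of the repressors Cry1 was at 24.97 and 50.4 CPM (log2 1.0, 95% interval 0.46 to 1.59), beside 0.13 in the other neutrophils and 0.27 in the monocyte reference. Per1 was at 86.2 and 106 CPM (log2 0.30, 95% interval -0.02 to 0.63) and Per2 at 13.7 and 12.6 CPM. A clock phase could therefore not be read from these cells at this depth. Of 8 measured glucocorticoid response genes, 2 were higher, Fkbp5 (21.2 and 35.6 CPM) and Mt1 (28.7 and 52.6 CPM), and none lower. The list's median was 0.42. Tsc22d3, which encodes GILZ, was at 137 and 206 CPM (log2 0.58), and Dusp1 at log2 0.36. Without the barcodes carrying other cell types' transcripts, none of the 8 was higher and Irs2 was lower, at a median of 0.41.

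Most granule and maturity genes differed little between the times. Of 7 measured secondary granule genes only Chil3 was past 1.5-fold, at 29.3 CPM (ZT4) and 112 CPM (ZT16) (log2 1.92, 95% interval 1.47 to 2.43), and it was higher in the other neutrophils too (2.32) but not in the monocyte reference (-0.11). Lcn2 was at 455 and 609 CPM (log2 0.42) and Hp at log2 0.20. Of 5 measured gelatinase granule and vesicle genes, 1 was lower past 1.5-fold and 0 higher, at a median of -0.15. Without the barcodes carrying other cell types' transcripts, 0 of the 5 were lower. Of 9 measured genes of mature neutrophils only Stfa1 was past the fold (32.5 and 65.8 CPM), with 21.2% and 25% of its UMIs in single barcodes. Of 7 subunits of the NADPH oxidase, which makes the oxidative burst, Cybb was lower (37.5 and 24.7 CPM) and the other 6 lay between -0.19 and 0.15. None of the 14 motility genes and none of the 20 measured interferon response genes was past 1.5-fold either way. Without the barcodes carrying other cell types' transcripts, 1 motility gene was lower, and 1 interferon response gene was higher and 1 lower. The interferon list's median was -0.02, and -0.54 with at least 5 UMIs of the first set and 0 of the second.

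The genes with the widest ZT16 difference were mostly not neutrophil genes. Igkc, Ighm and Jchain encode antibody chains of B lineage cells. At ZT16 single barcodes held all but 1 of 4785 Igkc UMIs, all 151 Jchain UMIs and 92.8% of 2278 Ighm UMIs (log2 3.85, 0.07 without the carrying barcodes), and at ZT4 1 barcode held all 34 Igkc UMIs. Hba-a1 (1.25 and 350.2 CPM), a haemoglobin gene, had 71.7% of its ZT16 UMIs in 1 barcode, and was also higher at ZT16 in the other neutrophils (6.82) and the monocyte reference (7.24). All 9 measured muscle fibre genes were higher, with a median of 1.66. Without the barcodes carrying other cell types' transcripts, 5 were still measured, only Acta1 was higher and the median was 0.53. Col4a1, Col3a1, Sparc, Rgs5 and Igfbp7, matrix and vessel genes, were lower, with 22.9 to 87.8% of their ZT4 UMIs in single barcodes. Without the carrying barcodes, 186 genes were higher and 263 lower of 5852, of which 135 and 199 were among the 238 and 326.

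Mmp9/Cxcr2 and Ccl3 neutrophils lie at opposite ends of the axis along which the rule chose them, so the values that follow describe that axis and test nothing. Of 4924 genes measured in both libraries, with the rule's own genes left out, 571 (11.6%) were at least 2-fold higher in Mmp9/Cxcr2 neutrophils in both libraries and 338 (6.86%) at least 2-fold lower in both. The median of all genes was 0.37 at ZT4 and 0.24 at ZT16. Centred on those medians the numbers were 349 and 451, so the share of higher genes among them went from 62.8% to 43.6%. Without the barcodes carrying other cell types' transcripts, 531 were higher and 314 lower of 4514. Some members of the adhesion (4 of 13), motility (5 of 14) and lipid mediator (4 of 8) lists stood at the Mmp9/Cxcr2 end. The medians of these lists were 0.50 and 0.36, 0.86 and 0.54, and 2.11 and 0.86 (ZT4 and ZT16). Those of the adhesion list thus lay near the medians of all genes. Most members of the antioxidant and iron list and of the tissue neutrophil list stood at the other.

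**Figure D4:**
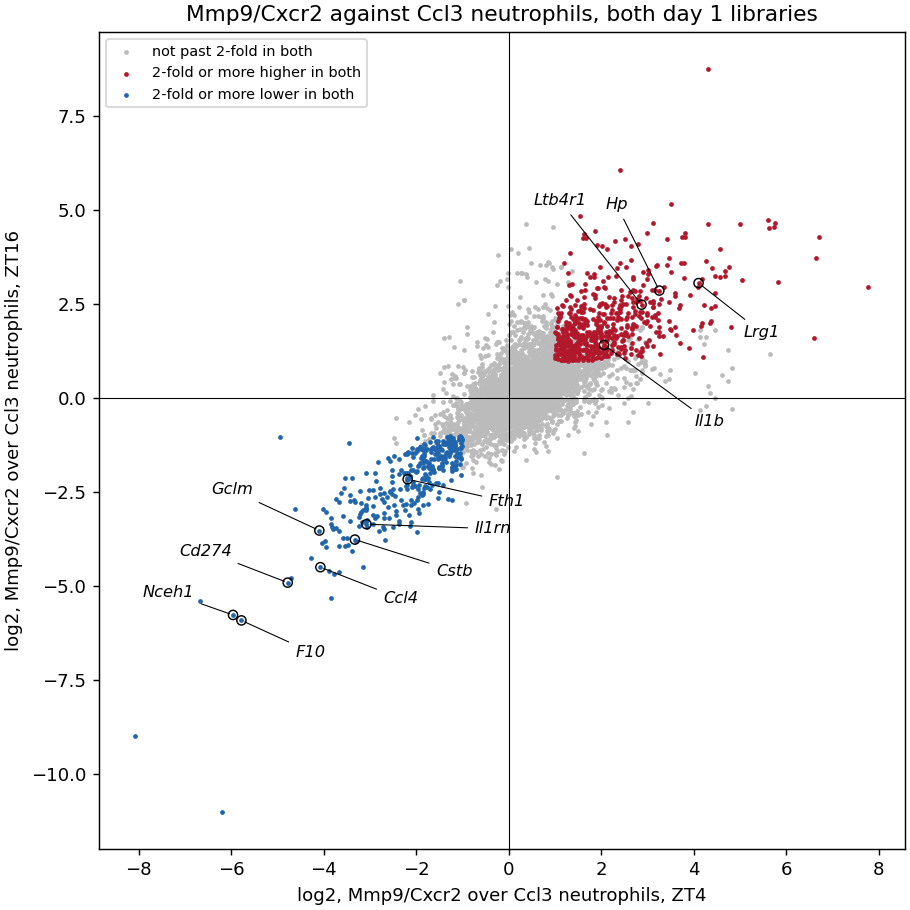
Log2 ratio of Mmp9/Cxcr2 over Ccl3 neutrophils for each of 4924 genes at ZT4 (horizontal) and ZT16 (vertical), with genes 2-fold or more apart the same way in both libraries in red or blue. Lrg1 (4.10 and 3.06) and Hp (3.26 and 2.86) lie at the upper right, Nceh1 (-5.96 and -5.77) and F10 (-5.78 and -5.91) at the lower left.

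Several adhesion and chemotaxis genes were higher in Mmp9/Cxcr2 neutrophils. Of 13 adhesion genes, 4 were past 2-fold higher in both libraries and none was lower. Among them Selplg had log2 values of 2.05 and 2.03, Itga4, an integrin subunit, 3.98 and 1.82 and Cd47 1.41 and 1.34. Ltb4r1, the receptor for leukotriene B4, was at 231 against 30.5 CPM at ZT4 and 171 against 28.5 CPM at ZT16. Fpr2 and C5ar2, receptors for formyl peptides and the complement fragment C5a, had log2 values of 1.25 and 1.62 and 1.55 and 2.13. Ptafr, the receptor for platelet activating factor, and Ccrl2, which presents chemerin, were lower, with -1.52 and -1.63 and -2.94 and -3.11. Cxcr4, at 0.05 and 0.08, did not separate the classes.

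Granule genes took both sides. Of 6 measured secondary granule genes Hp and Pglyrp1 were higher and Ltf (-3.56 and -2.40) was lower, with medians of 0.30 and 1.87. Of 5 gelatinase granule and vesicle genes only Mmp8 (1.64 and 2.68) was higher, and of 2 measured primary granule genes Prtn3 (2.99 and 2.26). Lrg1, a secreted leucine-rich glycoprotein of granulocytes, was at 842 against 47.9 CPM at ZT4 and 798 against 93.7 CPM at ZT16. Hp (haptoglobin) was at 1279.9 against 133 CPM at ZT4 and 1465 against 199.7 CPM at ZT16, and Pglyrp1, which binds bacterial wall, had log2 values of 2.24 and 2.47. Hdc, which makes histamine, had 2.41 and 2.28, Ifitm1 2.77 and 2.63, and Tgfbi 3.12 and 2.58. Jaml, a junction protein of migrating leukocytes, had 3.74 and 4.28. Of 14 motility genes 5 were higher and none lower, among them Coro1a (1.78 and 1.54), Rac2 (1.67 and 1.31) and Actb (1.32 and 1.04). Of 8 measured lipid mediator genes, 4 were higher and none lower. They were Alox5 (2.51 and 1.28) and Alox5ap (1.84 and 1.34), which start leukotriene synthesis, and the cyclooxygenases Ptgs1 (2.52 and 1.06) and Ptgs2 (2.35 and 1.16).

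The interleukin-1 genes split. Il1b was at 16404 against 3929 CPM at ZT4 and 17339 against 6508 CPM at ZT16, and the decoy receptor Il1r2 (1.78 and 1.39) and Il18rap (2.5 and 1.39) were higher too. Il1rn, the antagonist, was at 358 against 3018 CPM at ZT4 and 227 against 2319 CPM at ZT16, log2 -3.07 and -3.35. The members of the list thus took both sides, with 3 higher and 1 lower of 6 measured.

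Most antioxidant and iron genes, and some chemokines, lay at the other end. Ccl4 was at 581 against 9762 CPM at ZT4 and 603 against 13612 CPM at ZT16. Cxcl2 (-1.86 and -2.49) and Cxcl10 (-4.95 and -1.04) were lower as well, whereas Ccl6 was higher (2.15 and 1.75), out of 9 measured chemokines. Fth1 and Ftl1, the ferritin subunits, had -2.18 and -2.16 and -2.93 and -2.45. Of 11 measured antioxidant and iron genes 9 were lower and 1, Gpx1 (1.79 and 1.64), was higher. Gclm and Srxn1, targets of the factor Nrf2, had -4.09 and -3.52 and -3.68 and -3.92, Prdx1 -3.84 and -3.34 and Hmox1, which breaks down haem, -3.63 and -2.53. Slc7a11, which imports cystine for the same defence, is 1 of the 4 genes that the rule used.

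Of 12 genes of the tissue neutrophil list, 8 were lower and 2 higher. Cstb and Ctsb, a cathepsin inhibitor and a cathepsin, had -3.32 and -3.76 and -2.93 and -2.86, Lgals3 -3.18 and -3.30, Spp1 -3.66 and -2.76 and Cd274, which encodes PD-L1, -4.78 and -4.91. Vegfa had -2.26 and -1.99. Siglecf went the other way, at 123 against 28.3 CPM at ZT4 and 162 against 61.1 CPM at ZT16, as did Cdkn1a (1.18 and 1.54). Of the named genes Nceh1 (8.12 against 523 CPM at ZT4 and 8.22 against 461 CPM at ZT16), a cholesterol ester hydrolase, and F10 (11.2 against 632 CPM at ZT4 and 8.22 against 509 CPM at ZT16), coagulation factor X, lay furthest to this end. Gstm1, Slc31a2, Fnip2, Plgrkt, Esd, Gpr137b and Gla followed, with log2 values between -4.77 and -3.44.

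Of the 16 NF-kB feedback genes, none was higher and 4 were lower in both libraries, Relb, Tnip1, Tnf and Sod2. The list's medians were -0.10 and -0.30, below the medians of all genes. Nfkbia was at 1773 against 2665 CPM at ZT4 and 1012 against 2845 CPM at ZT16, and Tnf had log2 values of -1.04 and -1.62. Tnfaip3, at -0.02 and -0.38, did not separate the classes.

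Within the Mmp9/Cxcr2 neutrophils, those with a Retnlg UMI could be set beside those without, a comparison chosen after the shares above were seen. It used a gene of the rule, so it is a description. Cells with the UMI (148 and 122) had a median of 2241.5 and 2355 UMIs and those without (525 and 608) 2292 and 2396.5. Of 4555 genes measured in both libraries, 30 (0.659%) were at least 1.5-fold higher in the cells with a Retnlg UMI in both libraries, and 63 (1.38%) at least 1.5-fold lower in both. The medians of all genes were -0.09 and -0.08.

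The higher genes included 3 of 5 measured gelatinase granule and vesicle genes and 2 of 8 genes of mature neutrophils, but none of 5 secondary and 2 primary granule genes. Wfdc17, a small secreted whey acidic protein, was at 844 against 253 CPM at ZT4 and 2135 against 603 CPM at ZT16. Slpi, an inhibitor of neutrophil proteases, was at 1956 against 855 CPM at ZT4 and 2495 against 855 CPM at ZT16. Ccl6 had log2 values of 1.20 and 0.92, Mmp8, the neutrophil collagenase, 1.69 and 1.91, Lyz2 0.59 and 0.71 and Adam8 0.97 and 0.68. Mmp8, Lyz2 and Adam8 are the 3 gelatinase granule and vesicle genes. Stfa1, a protease inhibitor of the mature list, took opposite signs (1.38 and -2.12). Ifitm1 was at 3229 against 2023 CPM at ZT4 and 5839.5 against 2985 CPM at ZT16 and Jaml at 1.63 and 0.75 on the log2 scale, both of which also stood at the Mmp9/Cxcr2 end of the axis above. Slc2a3, a glucose transporter, had 1.0 and 0.85.

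Lower genes that belonged to lists came from many of them, with 1 or 2 members of each. Others, such as Nt5e and Cd63, belonged to none. Igkc and Col3a1, transcripts of other cell types, were among the 63, with no UMI in the cells with a Retnlg UMI. Ier3, the 1 of 15 immediate early genes past the fold, was at 1238 against 2029.5 CPM at ZT4 and 1069 against 1740.1 CPM at ZT16. Ccrl2 had log2 values of -0.88 and -0.97, Tnf -0.68 and -0.97, Il1a -1.15 and -1.98 and Gpr84 -1.26 and -3.71. Nt5e, the ectoenzyme CD73 that makes adenosine, was at 234 against 409.9 CPM at ZT4 and 98.9 against 335 CPM at ZT16. Cd63, of granule and lysosome membranes, was at 312 against 593 CPM at ZT4 and 262 against 558 CPM at ZT16. Ptgs1 had -1.07 and -1.23, and Cdkn1a -0.66 and -1.0. Of the 16 NF-kB feedback genes Tnf alone was past the fold in both libraries, and the list's medians were -0.22 and -0.29. Leaving out the barcodes with other cell types' transcripts gave 33 higher and 68 lower genes, of which 26 and 47 were among the 30 and 63.

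**Figure D5:**
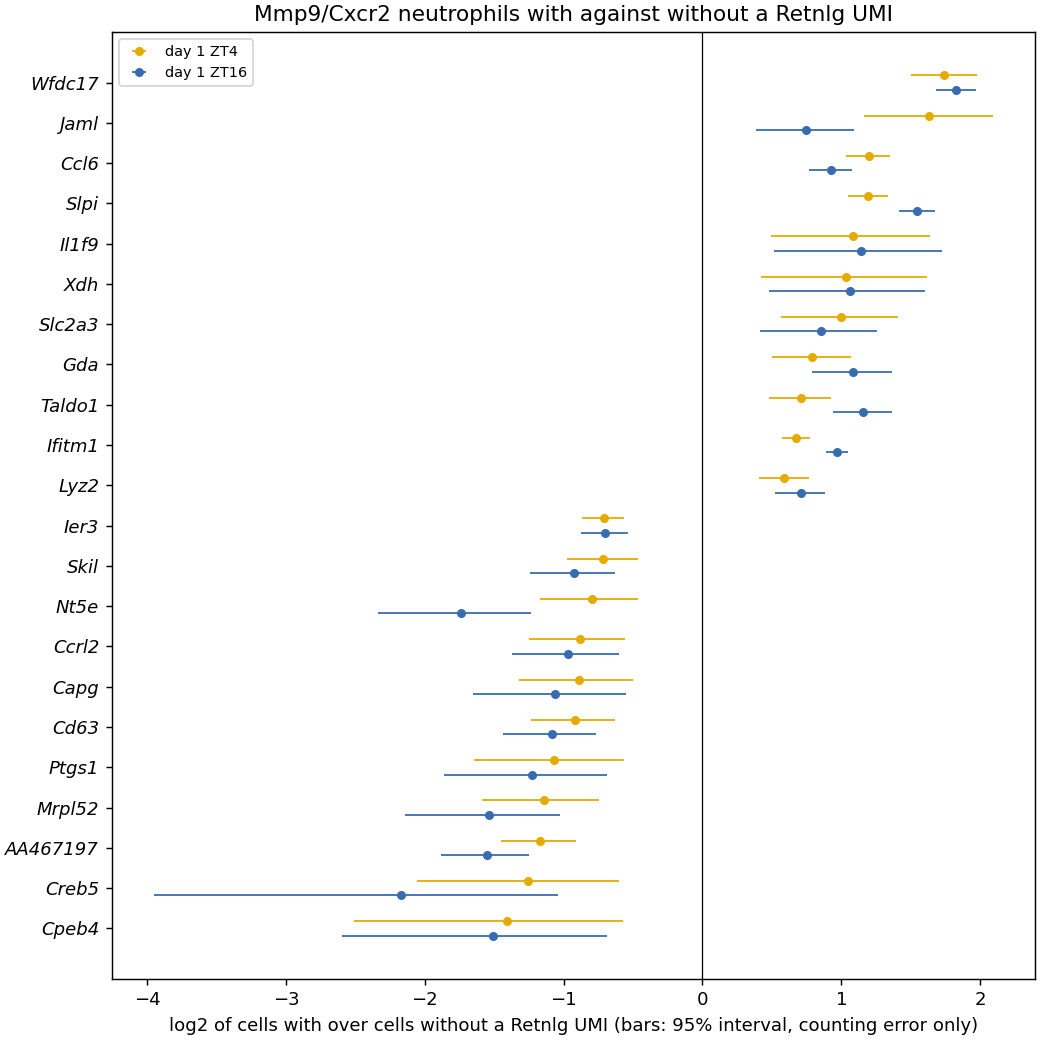
Log2 ratio of Mmp9/Cxcr2 neutrophils with a Retnlg UMI over those without, in each day 1 library, with exact 95% intervals for counting error, for genes among those with the largest bounds each way. Wfdc17 stands at 1.74 and 1.82 and Nt5e at -0.80 and -1.74.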

How the data were processed

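The deposited count matrices hold raw UMI counts per gene and barcode, which the authors made with Cell Ranger on mm10. Cell Ranger 6.1.2 is named in the file headers and 1.0.0 per the submitters' processing notes. The 6 libraries were compared without replicates, so no test was run. Members and gene lists were chosen with earlier results of these data known. UMIs were summed over the barcodes of a class and library and scaled to CPM. Log2 ratios used 0.5 UMI added to each sum, for genes with at least 30 UMIs in both sums together, so 1 of the sums could be 0. Intervals are exact 95% binomial intervals conditional on the total, and shares have exact Clopper-Pearson intervals. PCR and sampling of animals are not covered by them. A gene counted as higher or lower past 1.5-fold (times) or 2-fold (classes, both libraries) with its interval on 1 side of 0. Named were members of the 41 lists and, for each comparison, the 12 genes each way with at least 100 UMIs and the largest interval bound, without rule genes, mitochondrial, ribosomal and unnamed gene models. Doublets stayed in the results above. Scrublet (scanpy 1.11.5) called 197 and 351 day 1 barcodes, and an alternative left out its 965 and 1009 highest scores. Calculations used numpy 2.4.6, scipy 1.17.1 and pandas 2.3.3, were tested on simulated data, and were drawn with matplotlib 3.10.9. Gene positions are from GENCODE vM21 on GRCm38, and promoters from RefSeq. Some named genes are not reported here.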

Additional observations from a re-analysis of the deposited data

How the results depend on the processing

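The log2 ratio between times of the share of Mmp9/Cxcr2 neutrophils, over all barcodes and over neutrophils, stayed within its interval under 6 alternatives. Thinning to 1000 UMIs a barcode gave 151 genes higher and 183 lower at ZT16. Only 86 of these higher genes and 86 of these lower genes were also called without thinning. Against Ccl3 neutrophils thinning gave 340 higher and 225 lower, of which 293 and 203 were also called without it. Keeping genes with at least 100 UMIs gave 122 and 147 at ZT16, and 377 and 193 against Ccl3 neutrophils. With a minimum of 1 UMI, 525 genes were lower at ZT16. Centring on the median gave 349 higher genes against Ccl3 neutrophils. Thinned and filtered sums hold fewer UMIs or genes, and the cause of the other differences was not tested. Of values past 1.5-fold at ZT16, those that turned sign were Relb (0.42, thinned), Rgs5 (0.74, at least 5 UMIs of the first set and 0 of the second), the stromal list's median (0.018 under the same limits, 0.31 with a minimum of 1 UMI) and Tnni2 (-0.21, without barcodes carrying other cell types' transcripts). Medians of lists nearer to 0 turned sign too, among them the endothelial (1.91, thinned), monocyte (-0.20, thinned), chemoattractant receptor (0.27) and mature neutrophil lists (0.077, both under the stricter limits), heat shock (-0.25, doublets left out) and primary granule (-0.11, minimum of 1 UMI). Calls near 1.5-fold were lost for Nfkbiz (-0.55), Fkbp5 (0.42) and Nr4a1 (0.54) when thinned, for Zfp36 (0.54) under the stricter limits, and for Il18rap (-0.56) when centred. Sparc was far past the fold at -1.57, yet lost its call under the stricter limits (-0.022). With doublets left out it was at -5.20. Leaving out those barcodes, weighting barcodes equally and the comparison by Retnlg UMI were chosen after seeing the data. No paired analysis was possible because each day and time has 1 library. The comparison with day 3 was not run, since 37 and 16 barcodes met the rule there. Genes under about 30 summed UMIs, most clock genes among them, could not be compared at this depth.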
